A study of Mus musculus with 4 samples.

Results

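Expression of 7 genes used to mark the cells around blood vessels, Rgs5, Abcc9, Kcnj8, Cspg4, Acta2, Tagln and Myh11, was followed through hindlimb development in the mouse. The genes were given as a list, which names 7 of the 33456 gene entries in the count tables, and each was found once. The 4 libraries were droplet single-cell RNA sequencing libraries (10x Chromium, 3' chemistry) of whole hindlimb from unmodified C57BL/6 embryos, 1 library per stage at E11.5 (limb bud), E13.5 (cartilage condensation), E15.5 (joint cavitation) and E18.5 (joint morphogenesis). Cells of each stage came from the pooled limbs of 1 litter, were freed with collagenase and pronase, frozen, thawed and depleted of dead cells. A library is thus a mixture of embryos with no replicate, so differences between stages compare libraries, those within a stage compare cells of 1 library, and neither kind was tested.

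After filtering, 2630, 2812, 2591 and 1896 cells were kept from E11.5 to E18.5, with a median of 8926.5, 10263.5, 9934 and 6944.5 unique molecular identifiers (UMIs, each counting 1 captured transcript). Levels are in CPM, each gene's summed UMIs scaled to a common library total without globin genes. Ranges given after a value are its 95% interval, for counting error alone, with each UMI taken as independent. The size rule called a gene higher or lower where the ratio between libraries or groups of cells reached 2 either way, its interval lay wholly on 1 side of 1 and at least 20 UMIs supported it. Folds are given relative to the median gene, whose own ratio was -0.55 on the log2 scale for E13.5 over E11.5, -0.03 for E15.5 over E13.5, -0.15 for E18.5 over E15.5 and -0.63 for E18.5 over E11.5. A shift in a stage sum cannot tell fewer cells of a type from less RNA per cell. In the 4 libraries 69 barcodes occurred more than once, and 134 kept cells carried one of them.

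Small vessels are wrapped by pericytes and larger ones by layers of smooth muscle, together called mural cells, which steady the vessel wall and set its calibre. Pericytes of many organs carry a potassium channel that closes when ATP is plentiful, built from a pore subunit encoded by Kcnj8 and a regulatory sulphonylurea receptor subunit encoded by Abcc9, while smooth muscle is recognised by its contractile filaments. Of the genes followed here, Rgs5 encodes a regulator that speeds the switching off of G protein signals, and Cspg4 a membrane proteoglycan used as a pericyte marker. Acta2 encodes the smooth muscle actin, Tagln the actin-binding protein transgelin and Myh11 the smooth muscle myosin heavy chain. Cspg4 is also known from other immature connective tissue cells, and Acta2 from developing skeletal muscle.

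All 7 genes are annotated as protein-coding in GENCODE vM21 on GRCm38. Rgs5 lies at chr1:169655501-169695813 on the plus strand, Cspg4 at chr9:56865033-56899870 on the plus strand, Acta2 at chr19:34241090-34255590 on the minus strand, Tagln at chr9:45929619-45936058 on the minus strand and Myh11 at chr16:14194535-14291372 on the minus strand. The channel genes are neighbours on the minus strand of chromosome 6, Kcnj8 at chr6:142564837-142571614 and Abcc9 at chr6:142587862-142702315, with 16247 bases and 0 annotated genes between them. Tagln overlaps the end of Pcsk7 on the other strand, and also the antisense gene Gm48529, which has no entry in the count tables; Abcc9 overlaps the antisense gene 5330439B14Rik, which has no entry either. How reads were assigned at overlaps, by strand or between near-identical genes such as the actins, was not given in the sources used here, so part of the Acta2 count may belong to another actin.

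The promoters of the channel neighbours, whose RNAs are compared below, and of Acta2, the contractile gene with a sequence in the table, are shown from RefSeq on GRCm38.p6, each from 250 bases before to 50 bases after the annotated start, 5′ to 3′ on the minus strand. Capitals mark a MEF2 box in Abcc9 and 2 near-matches to the CArG box in Acta2, the element bound by serum response factor in muscle genes.
Abcc9 promoter, chr6:142702225-142702524: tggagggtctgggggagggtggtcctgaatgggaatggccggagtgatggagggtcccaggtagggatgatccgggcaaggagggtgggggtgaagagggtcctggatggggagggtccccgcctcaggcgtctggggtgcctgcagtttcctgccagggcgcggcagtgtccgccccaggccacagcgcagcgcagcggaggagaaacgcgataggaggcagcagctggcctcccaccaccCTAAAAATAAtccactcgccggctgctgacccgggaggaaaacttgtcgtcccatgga
Kcnj8 promoter, chr6:142571565-142571864: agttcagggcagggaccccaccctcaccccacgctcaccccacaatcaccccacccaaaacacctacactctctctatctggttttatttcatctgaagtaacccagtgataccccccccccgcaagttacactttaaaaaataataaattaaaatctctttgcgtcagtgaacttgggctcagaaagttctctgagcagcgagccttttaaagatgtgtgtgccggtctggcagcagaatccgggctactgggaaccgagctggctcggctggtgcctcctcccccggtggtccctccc
Acta2 promoter, chr19:34255324-34255623: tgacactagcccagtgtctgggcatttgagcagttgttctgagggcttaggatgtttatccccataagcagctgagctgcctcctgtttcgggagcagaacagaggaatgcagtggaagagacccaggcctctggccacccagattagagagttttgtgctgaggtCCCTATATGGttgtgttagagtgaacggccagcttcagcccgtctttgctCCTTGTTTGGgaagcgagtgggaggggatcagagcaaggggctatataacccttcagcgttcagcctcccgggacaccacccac
Promoters were found for 5 of the 7 genes. They were searched on both strands for the CArG box, the CArG box with 1 of its middle letters changed, the MEF2 box, TATAAA and TGGGAA. An exact CArG box was in none of the 5, and in 1.63% of the 32851 promoters of this length. Acta2 held 2 boxes with 1 letter changed, at -84 to -75 and at -34 to -25 with the start base counted as 0, and 8.50% of all promoters held at least 1. The MEF2 box of Abcc9 lay at -8 to 1 and was found in 3.19% of all promoters. TGGGAA was in Abcc9 (-221 to -216), in Kcnj8 (0 to 5) and in Acta2 (-27 to -22, overlapping the box at -34), against 25.6% of all promoters. TATAAA was in none of the 5, against 13.6% of all, and the promoters of Rgs5 and Cspg4 held none of the motifs searched.

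Across stages, 6 of the 7 genes had their highest level at E18.5, and Cspg4 had its highest at E15.5. Rgs5 had 1.04, 2.11, 8.55 and 427 CPM from E11.5 to E18.5, from 28, 74, 253 and 6258 UMIs, and its interval at each stage lay above the one before. Abcc9 had 3.47, 0.428, 0.709 and 47.0 CPM, so its lowest level was not at the first stage, and the intervals at E13.5 and E15.5 overlapped. Kcnj8 had 0.298, 0.884, 1.62 and 47.9 CPM, on only 8 UMIs at E11.5, with overlapping intervals at E13.5 and E15.5. The regulatory subunit gene was thus lower at both middle stages than at the first, and the pore subunit gene was not.

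Of the contractile genes, Acta2 had 33.7, 43.6, 86.4 and 907.5 CPM, with no overlap between stages. Tagln had 14.5, 5.28, 12.2 and 251.6 CPM, lowest at E13.5, and its intervals at E11.5 and E15.5 overlapped. Myh11 had 0.112, 0.257, 1.49 and 44.9 CPM, from 3, 9, 44 and 658 UMIs, and was the gene with the fewest UMIs before E18.5. Cspg4 had 2.61, 79.4, 94.6 and 45.6 CPM, a course unlike the others: it had a UMI in 2.59%, 43.2%, 46.4% and 21.4% of cells.

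**Figure D1:**
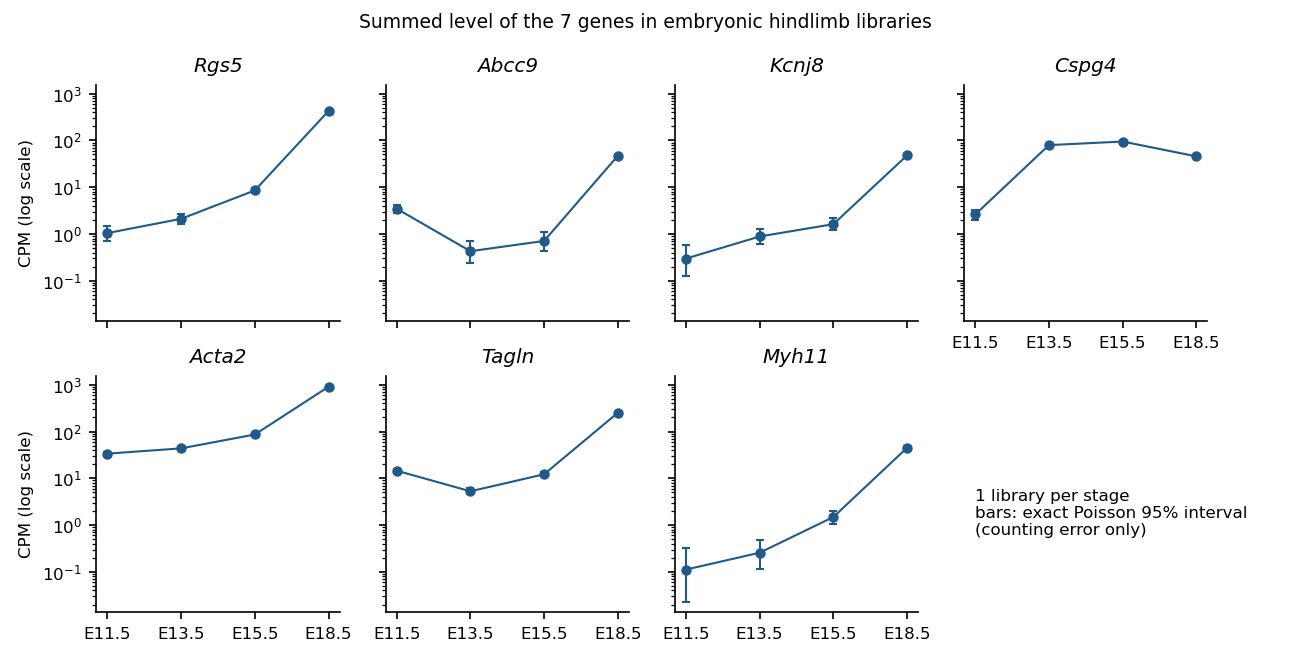
Level of each of the 7 genes in the summed library of each stage, in CPM on a log axis, against stage; points are single libraries and bars 95% exact Poisson intervals. Every gene but Cspg4 is highest at E18.5, where Rgs5 stands at 427 CPM and Myh11 at 44.9, and Cspg4 is highest at E15.5 with 94.6.

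At E18.5 over E15.5, Rgs5, Abcc9, Kcnj8, Acta2, Tagln and Myh11 were higher by the size rule, against a background of 13.7% of 14934 genes called higher and 6.34% called lower. Rgs5 was 55.2-fold higher at E18.5 (48.7 to 62.9), Abcc9 73.2-fold (47.5 to 119) and Kcnj8 32.7-fold (24.4 to 44.8). Acta2 was 11.6-fold higher (11.1 to 12.1), Tagln 22.8-fold (20.5 to 25.5) and Myh11 33.4-fold (24.6 to 46.4). Cspg4 was 1.88-fold lower (1.72 to 2.04) and was not called relative to the median gene; by CPM alone it passed the size rule as lower, as did 8.22% of genes.

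The earlier steps were smaller for most of these genes. For E15.5 over E13.5, where 4.12% of 15267 genes were called higher and 0.897% lower, Rgs5 (4.13-fold, 3.18 to 5.43), Acta2 (2.02-fold, 1.90 to 2.15), Tagln (2.36-fold, 1.97 to 2.83) and Myh11 (5.91-fold, 2.85 to 13.8) were called higher, and Acta2 was not called by CPM alone, which called 3.86% of genes higher. Abcc9, Kcnj8 and Cspg4 were not called, with folds of 1.69 (0.832 to 3.53), 1.87 (1.17 to 3.04) and 1.22 (1.15 to 1.28). For E13.5 over E11.5, where 19.5% of 15167 genes were called higher and 9.61% lower, Cspg4 was 44.4-fold higher (35.0 to 57.2), Kcnj8 4.33-fold (1.95 to 10.9) and Rgs5 2.95-fold (1.89 to 4.74). Abcc9 went the other way and was 5.55-fold lower at E13.5 (3.20 to 10.3). Tagln was 1.89-fold lower (1.58 to 2.26) and not called, though CPM alone called it lower, as it did 26.2% of genes; Acta2 was 1.89-fold higher (1.74 to 2.06) and not called, and Myh11 had too few UMIs. Without the 3 cells holding most of its UMIs in each library, Rgs5 was 2.34-fold higher relative to the median gene and still called, whereas its CPM ratio was 1.60 and under the size rule, against 2.02 with all cells. Over the whole span, E18.5 over E11.5, all 7 were called higher, against 24.5% of 14879 genes called higher and 13.9% lower, with folds between 21.0 for Abcc9 and 633 for Rgs5.

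A mural-like class was found by clustering all cells without the 7 genes, and named from 16 other markers such as Pdgfrb, Notch3 and Mcam. Its leading genes included the contractile Actg2 and Mylk and the pericyte genes Higd1b and Vtn, but also the chemokine genes Cxcl1, Ccl11 and Ccl2. It held 3 cells at E13.5, 13 at E15.5 and 340 of 1896 at E18.5 (17.9%, 16.2 to 19.7), and no cell at E11.5. Since clusters and levels come from the same cells, levels by class are a description.

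At E18.5, 6 of the 7 genes had their highest level in mural-like cells, among classes of at least 30 cells. Rgs5 had 2146 CPM there and between 13.01 and 58.4 CPM in the other named classes of that size, and mural-like cells held 96.0% of its UMIs. For Abcc9 and Kcnj8 the mural-like levels were 234 and 237 CPM, with 94.9% and 94.45% of the UMIs. Myh11 had 228 CPM and 96.8% of its UMIs in mural-like cells, and at most 2.82 CPM, in muscle progenitor-like cells, in the other named classes of that size.

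Acta2, Tagln and Cspg4 had further sites. Acta2 had 3820 CPM in mural-like cells, 1188 in differentiating muscle-like cells and 451 in muscle progenitor-like cells, and 94.0% of the differentiating muscle-like cells had a UMI. Tagln had 1097 CPM in mural-like cells and 189.5 in muscle progenitor-like cells, 49.2% of which had a UMI, but only 5.43 in differentiating muscle-like cells. Cspg4 had 83.3 CPM in mural-like cells and 140 CPM in chondrocyte-like cells, which make cartilage matrix. Mural-like cells held 80.3% of the Acta2 UMIs at E18.5, 83.2% of the Tagln UMIs and 34.8% of the Cspg4 UMIs, against 41.9% of Cspg4 in chondrocyte-like cells. The name pericyte and smooth muscle gene thus did not describe most of the Cspg4 signal in the limb.

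**Figure D2:**
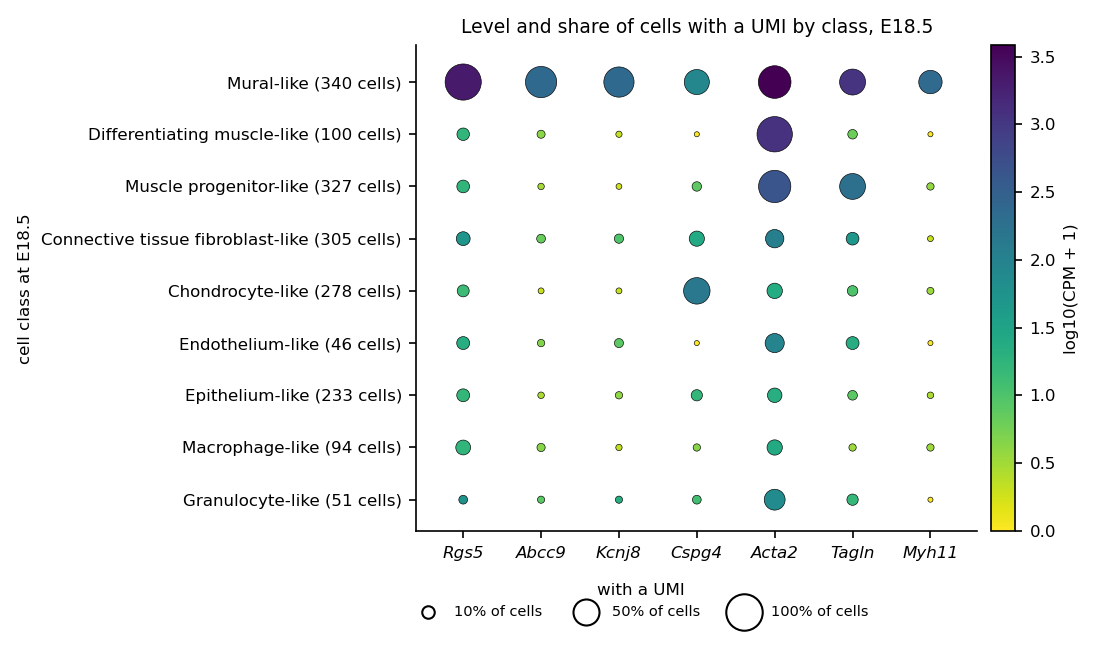
Level and detection of the 7 genes in the 9 named classes of at least 30 cells at E18.5; colour gives log10(CPM + 1) and dot area the share of cells with a UMI. Rgs5, Abcc9, Kcnj8 and Myh11 are dark and large in the mural-like row, Acta2 also in both muscle-like rows, Tagln in muscle progenitor-like cells and Cspg4 in chondrocyte-like cells.

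The other sites were present before E18.5. Chondrocyte-like cells had 109.5, 143 and 140 CPM of Cspg4 at E13.5, E15.5 and E18.5 and held 73.95%, 78.5% and 41.9% of its UMIs, and the share of these cells with a UMI was 73.2%, 73.4% and 51.8%. Their Cspg4 level at E18.5 was close to that at E15.5, while the sum over the limb was lower. Acta2 in differentiating muscle-like cells was 1365, 1007 and 1188 CPM at the same stages, on 32, 64 and 100 cells. In muscle progenitor-like cells Acta2 was 685, 290 and 451 CPM and Tagln 16.3, 95.5 and 189.5 CPM. At E11.5 no mural-like cell was found. Of its Acta2 UMIs, 17.5% lay in 4 differentiating muscle-like cells (1774 CPM) and 8.195% in 3 muscle progenitor-like cells (2183 CPM). An epithelium-like cluster of 124 cells, led by Cldn3, Gabrp, Krt8 and Krt19, held 64.8% of the Acta2 UMIs (468 CPM) and 74.1% of the Tagln UMIs (231 CPM), and 0 Myh11 UMIs. The other large epithelium-like cluster of that stage, with 233 cells, had 2.97 CPM of Acta2 and 14.4 of Tagln.

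Abcc9 at E11.5 was in endothelium-like cells, which line the vessels. A cluster of 383 of them, led by Plvap and Emcn, held 89 of the 93 Abcc9 UMIs, 19.0 CPM (15.2 to 23.3), in 19.1% of its cells. The same cells held 7 of the 8 Kcnj8 UMIs of that stage and 0 Rgs5 UMIs. Over all endothelium-like cells Abcc9 had 18.85, 6.01, 4.13 and 3.55 CPM from E11.5 to E18.5, on 394, 109, 112 and 46 cells. The last of these values rests on 1 UMI, and its interval (0.0898 to 19.8) spans the earlier values. The make-up of the class also changed with stage, so these values do not follow 1 cell type. From E11.5 to E18.5 the Plvap-led cluster gave 383, 1, 0 and 0 of these cells. A cluster led by Ccl21a, Lyve1 and Fgl2 gave 0, 5, 39 and 25.

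To look inside single cells, cells with 3 or more Rgs5 UMIs (Rgs5>=3 cells) were taken. There were 0 of 2630 at E11.5, which allows a share of up to 0.114% by the floor of 3 counts or 0.140% by the exact interval, then 4 of 2812 at E13.5 (0.142%, 0.0388 to 0.364), 15 of 2591 at E15.5 (0.579%, 0.324 to 0.953) and 335 of 1896 at E18.5 (17.7%, 16.0 to 19.5). With every cell thinned to 3000 UMIs, and the 15, 0, 0 and 126 shallower cells left out, the shares were 0%, 0.0356%, 0.347% and 15.1%. E18.5 was the shallowest library and had the largest share. Its 335 Rgs5>=3 cells held 97.2% of the Rgs5 UMIs of that stage, with a median of 15 UMIs per cell (3 to 75). Beyond the threshold 145 cells had 1 Rgs5 UMI, 7 of them mural-like, and 16 had 2, 6 of them mural-like; just inside it 12 had 3, 10 of them mural-like, and 19 had 4, 16 of them mural-like. Of the 335 cells, 322 were mural-like, 10 connective tissue fibroblast-like, and 1 each differentiating muscle-like, granulocyte-like and muscle progenitor-like.

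Markers that the selection did not use were then counted. All 16 mural markers had UMIs in the Rgs5>=3 cells, which summed to 4513 CPM against 483.5 CPM in the 1561 other cells. Pdgfrb, the receptor for the growth factor that recruits pericytes, was in 71.9% of Rgs5>=3 cells and 5.89% of other cells, and Notch3, a Notch receptor of mural cells, in 82.4% and 10.8%. Of 11 endothelial markers 9 had UMIs, summing to 345.5 CPM against 240.3 CPM, but 659 and 159 of these UMIs were of Esam and Flt1. Cdh5, Kdr and Cldn5 had 1, 1 and 2 UMIs in the Rgs5>=3 cells, and Tek and Tie1 had 0. Emcn was higher in the Rgs5>=3 cells, with 15.2 CPM against 5.41 (9.25% and 1.73% of cells). Pecam1 had 19.5 CPM against 27.7 (14.3% and 11.3% of cells). Egfl7 had 12.7 CPM against 45.2 (10.45% and 13.5% of cells), and Ramp2 7.08 against 57.3. Fibroblast markers summed to 3198 CPM in Rgs5>=3 cells and 6314 CPM in other cells, chondrocyte markers to 466 and 11560 CPM, macrophage markers to 75.4 and 1883 CPM and muscle progenitor markers to 10.97 and 101 CPM, with Pax7 at 0 in the Rgs5>=3 cells.

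Among the Rgs5>=3 cells of E18.5, each other member was found more often and at a higher level than in the remaining cells. Abcc9 was in 71.9% of Rgs5>=3 cells (66.8 to 76.7) and 2.56% of other cells, and Kcnj8 in 67.8% (62.5 to 72.7) and 2.24%. Acta2 was in 80.3% (75.6 to 84.4) and 36.2%, Tagln in 50.75% (45.3 to 56.2) and 15.6%, and Myh11 in 38.8% (33.6 to 44.2) and 1.73%. Cspg4 was in 46.9% (41.4 to 52.4) and 15.9%. Rgs5>=3 cells were slightly deeper, with a median of 7858 UMIs against 6677 in other cells. At 3000 UMIs per cell the shares were 44.5% and 1.45% for Abcc9, 42.95% and 1.59% for Kcnj8, 71.5% and 26.3% for Acta2, 39.8% and 9.65% for Tagln, 28.8% and 0.965% for Myh11 and 21.9% and 8.201% for Cspg4, over 319 Rgs5>=3 cells and 1451 other cells. Abcc9, Kcnj8 and Myh11 were thus each in under 3% of the other cells, and Acta2, Tagln and Cspg4 in more of them.

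**Figure D3:**
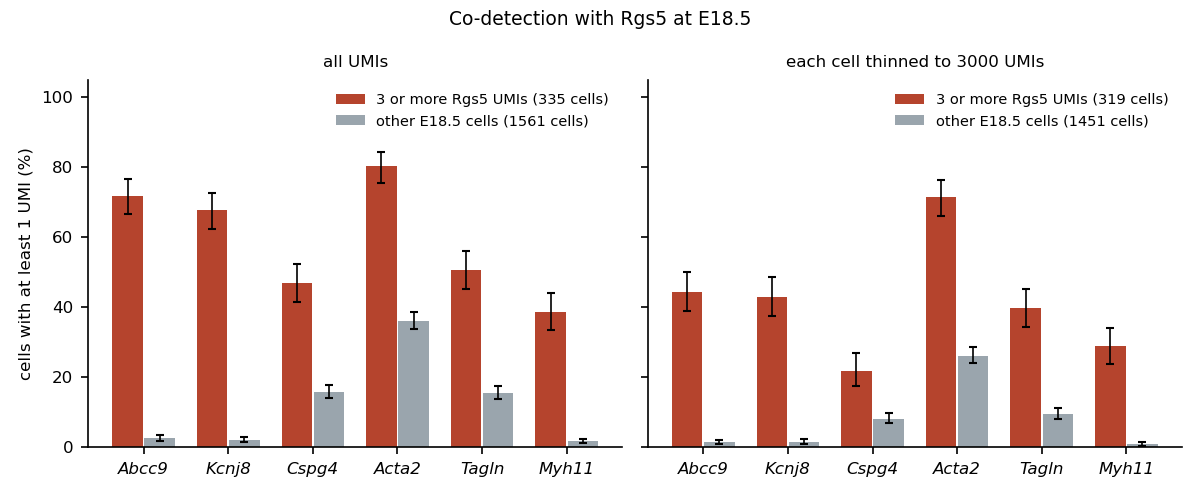
Share of cells with at least 1 UMI of each other gene among E18.5 cells with 3 or more Rgs5 UMIs and among the other E18.5 cells, with all UMIs on the left and each cell thinned to 3000 UMIs on the right; bars are 95% Clopper-Pearson intervals. Abcc9 is in 71.9% of Rgs5>=3 cells against 2.56% of other cells, and Cspg4 in 46.9% against 15.9%.

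In level, all 6 other members were called higher in Rgs5>=3 cells, where 10.8% of 12857 genes were called higher and 13.7% lower. Abcc9 was at 228 CPM in Rgs5>=3 cells and 3.80 in other cells, 65.0-fold higher relative to the median gene (48.0 to 90.0), and Kcnj8 at 229 and 4.81, 51.4-fold (39.2 to 68.7). Myh11 was at 218 and 3.63 CPM, 64.9-fold higher (47.6 to 90.6). Acta2 was 16.1-fold higher (15.4 to 16.8), Tagln 18.15-fold (16.7 to 19.7) and Cspg4 2.38-fold (2.02 to 2.80). Rgs5 itself, which chose the cells, was at 2153 CPM in them and 14.9 in the others.

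Single Rgs5>=3 cells held on average 3.56 of the other 6 members, against 0.743 in other cells. All 6 were detected in 20 cells and none in 3. At least 1 channel subunit was in 287 cells (85.7%, 81.5 to 89.2), and both in 181 (54.0%, 48.5 to 59.5). At least 1 of Acta2, Tagln and Myh11 was in 285 cells (85.1%, 80.8 to 88.7), and all 3 in 99 (29.6%, 24.7 to 34.8). Most cells had a UMI of both kinds, 240 of 335 (71.6%). A channel subunit without a contractile gene was seen in 47 cells (14.03%) and a contractile gene without a channel subunit in 45 (13.4%), as far as sparse counts show.

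The channel genes were often found together. Kcnj8 was in 75.1% of the 241 Rgs5>=3 cells with Abcc9 (69.2 to 80.4) and in 48.9% of the 94 without (38.5 to 59.5), and thinning gave 50.7% and 36.7%, with overlapping intervals. Median depths were 8152 UMIs in the cells with Abcc9 and 6859 in those without. This was not particular to the channel genes. Cspg4 was in 55.5% of the cells with Kcnj8 (48.8 to 62.1) and 28.7% of those without (20.4 to 38.2). Thinning gave 26.3% and 18.7%, again with overlapping intervals, and median depths were 8333 and 6151.5 UMIs. The contractile genes were also found together, and for these the intervals did not overlap before or after thinning. Tagln was in 58.7% of the cells with Acta2 and 18.2% of those without, and at 3000 UMIs in 52.6% and 7.69%. Myh11 was in 58.8% of the cells with Tagln and 18.2% of those without, and at 3000 UMIs in 49.6% and 15.1%. Overlapping intervals do not show that 2 shares are equal. Thinning also cut detection unequally. Abcc9 went from 71.9% to 44.5% of Rgs5>=3 cells, and Acta2 from 80.3% to 71.5%.

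Between the channel and contractile genes the shares ran the other way. Abcc9 was in 62.3% of the 130 cells with Myh11 (53.4 to 70.7) and 78.05% of the 205 without (71.8 to 83.5), and Kcnj8 in 56.9% and 74.6%. For Tagln, Abcc9 was in 63.5% of the cells with it and 80.6% without, and Kcnj8 in 59.4% and 76.4%. For Acta2 the gaps were smaller and the intervals overlapped. Abcc9 was in 71.0% of the cells with Acta2 and 75.8% without, and Kcnj8 in 66.2% and 74.2%. At 3000 UMIs Abcc9 was in 34.8% of cells with Myh11 and 48.5% of cells without, and Kcnj8 in 30.4% and 48.0%, and after thinning the intervals overlapped for Abcc9. With Tagln at that depth neither gene had overlapping intervals. Abcc9 was in 33.9% of cells with Tagln (25.7 to 42.8) and 51.6% without (44.3 to 58.8). Kcnj8 was in 28.35% (20.7 to 37.0) and 52.6% (45.3 to 59.8). Across the 335 cells of this 1 library, Pearson's r of the log-scaled values was 0.79 for Acta2 and Tagln, 0.68 for Acta2 and Myh11 and 0.65 for Tagln and Myh11. The 6 pairs of a channel gene with a contractile gene lay between -0.31 and -0.23 and the remaining pairs between -0.09 and 0.24. Values this weak in sparse counts are no finding.

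Rgs5>=3 cells with a Myh11 UMI were then set against those without. Both were of like depth, with medians of 8037 and 7780 UMIs and of 17.5 and 15 Rgs5 UMIs. All 130 cells with Myh11 were mural-like, and 192 of the 205 without. Of 8297 genes, 361 (4.35%) were called higher in cells with Myh11 and 206 (2.48%) lower by CPM. Acta2 had 7580 CPM in cells with Myh11 and 1048 in cells without, 7.24-fold higher (6.87 to 7.62), and Tagln 2261 and 226, 10.0-fold higher (8.97 to 11.2). Abcc9 had 154 and 278 CPM, a ratio of 0.555 (0.463 to 0.661), and Kcnj8 154 and 279 CPM, a ratio of 0.552 (0.462 to 0.658); neither was called, but the whole interval lay below 1 for each. Cspg4, at 77.5 and 84.1 CPM, and Rgs5, at 2357 and 2015 CPM, were not called.

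Of 22 other contractile genes with enough UMIs, 12 were called higher in cells with Myh11 and none lower, beside the 4.35% and 2.48% of all genes. Cnn1, which encodes calponin, had 253.5 CPM in cells with Myh11 and 3.55 in cells without, 71.3-fold higher (32.4 to 196). Actg2, the enteric smooth muscle actin, had 968 and 36.7 CPM, 26.4-fold higher (20.4 to 34.6), and Lmod1, encoding the filament nucleator leiomodin, 95.9 and 4.15 CPM, 23.1-fold higher (10.9 to 58.9). The others among the 10 with the largest ratio were Tagln, Fbxl22, Tnmd, Nrip2, Kcnk3, Lmcd1 and Col8a1, with ratios between 9.93 and 52.4, and 66 of the 145 Col8a1 UMIs lay in 1 cell. Mylk, the kinase of myosin light chain, was 3.84-fold higher, Myl9, its regulatory light chain substrate, 4.01-fold, and the tropomyosins Tpm1 and Tpm2 were 3.22-fold and 3.43-fold higher.

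Of the 10 genes with the lowest ratio, each had at least 87.7% of its UMIs in 1 cell. For 8 of them, among them S100a8, S100a9 and Stfa1, this was the granulocyte-like cell, and for Spp1 and Mmp13 a mural-like cell. In the mural-like cells alone, chosen after these values were seen, 388 of 8135 genes were called higher (4.77%) and 177 lower (2.18%). There the lower side held Steap4, a metalloreductase gene known from pericytes, at 26.4 CPM in cells with Myh11 and 130 in cells without (4.92-fold lower, 3.34 to 7.48) and Cygb, which encodes cytoglobin, at 75.7 and 318 CPM (4.20-fold lower, 3.33 to 5.34). The muscle genes Actc1, encoding cardiac actin, and Myog, a regulator of skeletal muscle differentiation, were among the 10 highest in the mural-like cells alone. Actc1 had 83.6 CPM in cells with Myh11 and 6.37 in cells without (13.1-fold higher), and Myog 64.25 and 5.73 CPM (11.2-fold higher), with 34 of its 82 UMIs in 1 cell. Differentiating muscle markers summed to 437 CPM in cells with Myh11, 11 of 11 with a UMI, and 285 CPM in cells without, 9 of 11 with a UMI. Des, which smooth muscle also expresses, gave 248 of the 496 UMIs with Myh11 and 358 of the 447 without. Myh3 and Myh8 were at 0 without Myh11 and had only 1 and 2 UMIs with it. Tnnt2 had 15 UMIs with Myh11 and 2 without, Tnni1 10 and 4 and Tnnt1 37 and 35. Others had fewer with Myh11: Acta1 had 4 and 7, Mylpf 10 and 16 and Ttn 1 and 6. Muscle progenitor markers summed to 16.7 and 1.91 CPM, with Pax7 at 0 in both, chondrocyte markers to 753 and 264 CPM and tendon markers to 224 and 28.7 CPM. The part of these cell types in the division was not tested.

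Of 18 pericyte genes none was called higher and 2 were called lower in all Rgs5>=3 cells with Myh11, beside the same 4.35% and 2.48%. Art3 (ratio 0.363) and Steap4 (0.216) were called lower, and Vtn (0.559), Higd1b (0.572) and Pdgfrb (0.674) were not called. The list went both ways. Ednra (1.44, 1.05 to 1.96), Mcam (1.29, 1.13 to 1.46), Ndufa4l2 (1.26, 1.18 to 1.34) and Notch3 (1.24, 1.07 to 1.43) were not called, with intervals wholly above 1.

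Clustering the E18.5 library by itself, again without the 7 genes, divided the 340 mural-like cells into 3 clusters. A cluster of 55 cells led by Cnn1, Actg2 and Lmod1 had 14459 CPM of Acta2 (14110 to 14814), 5427 of Tagln and 814 of Myh11. The largest, 255 cells led by Vtn, Steap4 and Art3, had 1984, 299.7 and 129 CPM of the same genes. The smallest, 30 cells led by Trpc6, Tac1, Stc1 and Il6, had 469, 43.5 and 28.0 CPM. For each of the 3 contractile genes the intervals of the 3 clusters did not overlap. Rgs5 had 1994, 2213 and 1939 CPM in the same order, and Kcnj8 169 (133 to 211), 254 (233 to 277) and 227 CPM (178 to 285). Abcc9 had 113 CPM in the Cnn1-led cluster (84.2 to 149), against 259 (237 to 282) and 245.5 (194 to 306) in the others. Cspg4 had 73.2, 90.9 and 49.7 CPM, with overlapping intervals between all 3 clusters.

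**Figure D4:**
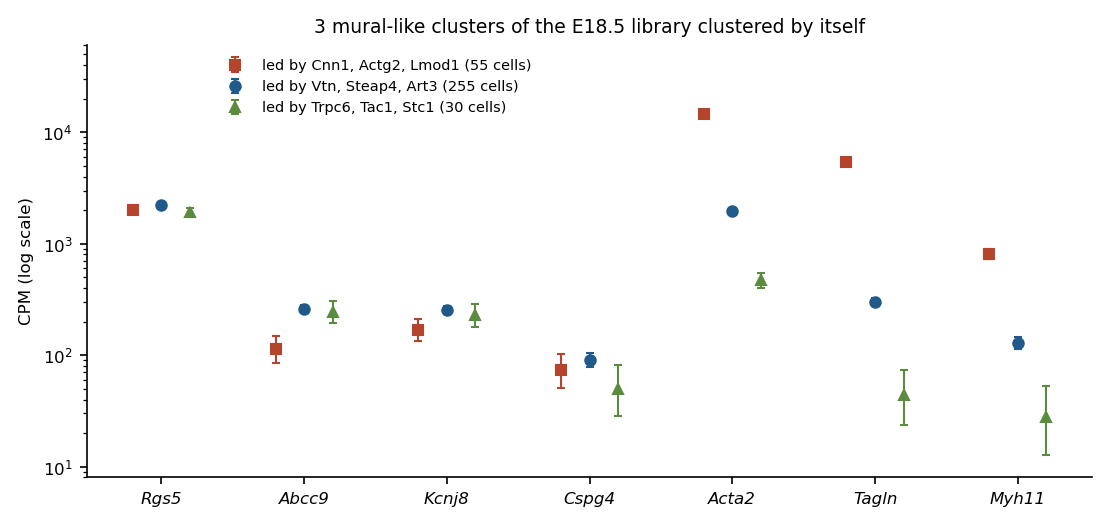
Level of the 7 genes, in CPM on a log axis, in the 3 clusters of mural-like cells found when the E18.5 library was clustered by itself without them; bars are 95% exact Poisson intervals. Acta2 stands at 14459, 1984 and 469 CPM in the clusters led by Cnn1, Vtn and Trpc6, while Rgs5 stands at 1994, 2213 and 1939.

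Before E18.5 mural-like cells were few, and their values are those of single cells. One of the 4 Rgs5>=3 cells at E13.5, a mural-like cell, held 150 Acta2, 40 Tagln and 6 Myh11 UMIs beside 7 of Rgs5, and another held 17 of Rgs5, 6 of Kcnj8, 3 of Acta2 and none of Tagln or Myh11. At E15.5, 11 of the 15 were mural-like, and 9 of these had between 22 and 165 Acta2 UMIs. Summed over the 13 mural-like cells of E15.5, Rgs5 had 1351 CPM (1167 to 1556), Abcc9 49.3 (19.8 to 101.5), Kcnj8 162 (103 to 243) and Cspg4 63.3 (29.0 to 120.2). Acta2 had 6361 CPM there (5953 to 6790), Tagln 1077 (913 to 1261) and Myh11 267 (189 to 367). These cells held 75.9% of the Rgs5 UMIs of E15.5 and 86.4% of the Myh11 UMIs, but 35.4% of Acta2 and 0.321% of Cspg4. Within the mural-like class the stages differed less than the library sums did. At E18.5 Acta2 was lower there, at 3820 CPM (3748 to 3893). Rgs5 was higher, at 2146 (2092 to 2201), and so was Abcc9, at 234 (216 to 252). For Kcnj8, Cspg4, Tagln and Myh11 the intervals of the 2 stages overlapped. The class was 0.502% of cells at E15.5 and 17.9% at E18.5.

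Low counts outside the mural-like class were read against free RNA, the transcripts that leak from broken cells into every droplet. Between 8.99% (chondrocyte-like) and 14.9% (macrophage-like) of the cells in the larger other classes had a Rgs5 UMI at E18.5, including 10.7% of epithelium-like cells, and the median depths there were 6366.5, 6360.5 and 7137 UMIs. These classes are not known for Rgs5, so a like share was read as background, although the free RNA itself was not measured. In the granulocyte-like class 15 of 16 Rgs5 UMIs lay in 1 cell. If free RNA from mural-like cells were the only source, each gene would keep its ratio to Rgs5 in every class. In mural-like cells there were 0.109 Abcc9, 0.111 Kcnj8, 0.106 Myh11, 1.78 Acta2, 0.511 Tagln and 0.0388 Cspg4 UMIs per Rgs5 UMI. With Rgs5>=3 cells left out, Acta2 had 1.77 UMIs per Rgs5 UMI in chondrocyte-like cells (1.07 to 2.98), 1.35 in epithelium-like (0.787 to 2.33) and 1.5 in macrophage-like cells (0.728 to 3.19), so the mural-like ratio lay within each interval. Endothelium-like cells had 4.33 (1.74 to 12.9), an interval that also held it. Granulocyte-like cells were above it with 18 Acta2 UMIs to 1 Rgs5 UMI (2.84 to 750.0). With their 1 Rgs5>=3 cell kept they had 1.25 (0.615 to 2.58), an interval that held the mural-like ratio. Both muscle-like classes were far above the mural-like ratio, with 32.85 in muscle progenitor-like cells (23.4 to 47.7) and 108.5 in differentiating muscle-like cells (58.8 to 227).

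Tagln gave 13.8 UMIs per Rgs5 UMI in muscle progenitor-like cells (9.73 to 20.2), 0.971 in fibroblast-like cells (0.583 to 1.615) and 0.692 in chondrocyte-like cells (0.358 to 1.31), and only the last of these intervals held the mural-like ratio. Cspg4 gave 10.8 in chondrocyte-like cells (7.20 to 16.8), 1.44 in fibroblast-like (0.912 to 2.302) and 1.00 in epithelium-like cells (0.558 to 1.79), all above the mural-like ratio. However, chondrocyte-like cells held 41.9% of the Cspg4 UMIs at E18.5 and mural-like cells 34.8%. The mural-like ratio is therefore no background level for Cspg4. Free RNA from chondrocyte-like cells could not be told apart from expression in the other classes. Connective tissue fibroblast-like cells were also above the mural-like ratio for Abcc9 and Kcnj8, each at 0.324 (0.148 to 0.654), on 11 UMIs apiece, and for Acta2 at 2.88 (1.93 to 4.39). Leaving out Rgs5>=3 cells lowers the Rgs5 count in these ratios, here from 103 to 34 UMIs. With all fibroblast-like cells kept, Abcc9 had 0.117 (0.0583 to 0.212), Kcnj8 0.175 (0.0996 to 0.290) and Acta2 2.22 (1.755 to 2.83). Each of these intervals held the mural-like ratio. Tagln at 0.942 (0.706 to 1.255) and Cspg4 at 0.495 (0.347 to 0.699) stayed above it. For Abcc9, Kcnj8 and Myh11 in the other 5 classes shown in the plot of UMI ratios, the interval held the mural-like ratio, on at most 7 UMIs each.

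**Figure D5:**
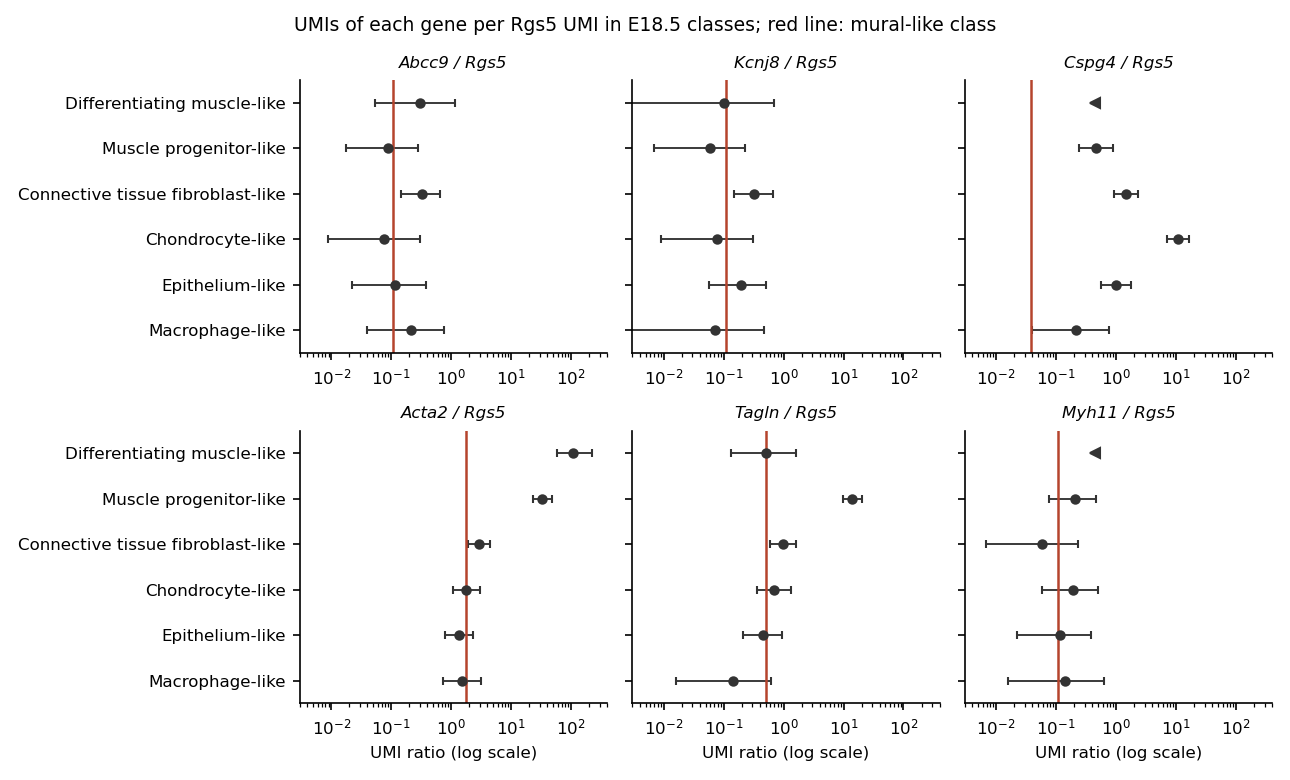
UMIs of each gene per Rgs5 UMI in 6 classes of E18.5 cells, with Rgs5>=3 cells left out, on a log axis; bars are 95% intervals, a leftward triangle marks the upper limit where the gene had 0 UMIs, and the red line is the ratio in mural-like cells. Acta2 lies far right of the line in both muscle-like classes (108.5 and 32.85), Tagln in muscle progenitor-like cells (13.8) and Cspg4 in chondrocyte-like cells (10.8).

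Genes of the wider pathways were followed in 4 lists. These lists were chosen with earlier results of these data known. Some of their genes, among them Pdgfrb, Vtn, Cnn1 and Heyl, were also markers that named the mural-like class. The counts of listed genes called, here and below, are therefore a description and no independent support. Of 19 pericyte genes, 18 were called higher at E18.5 than at E15.5 and none lower, beside 13.7% and 6.34% of all genes, with a median of 2.15 on the log2 scale relative to the median gene. The largest folds were those of Vtn (617, 170 to 5108) and Higd1b (587), which had only 2 and 3 UMIs at E15.5, then of the connexin gene Gja4 (20.7) and Rgs4 (18.75), a relative of Rgs5. Of 23 contractile genes with enough UMIs, 14 were called higher and none lower (median 1.61), against the same shares of all genes, led by Actg2 (32.25), Cnn1 (27.9), the potassium channel subunit gene Kcnmb1 (25.7) and Mylk (19.4). Srf, which encodes serum response factor, was at 1.03-fold (0.904 to 1.17) and not called.

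Of 17 genes for recruitment and fate of mural cells, 10 were called higher at E18.5 than at E15.5 and 2 lower (median 1.37), again beside 13.7% and 6.34% of all genes. The forkhead gene Foxs1 was 44.3-fold higher (20.95 to 112), the Notch target Heyl 8.83-fold, the sphingosine phosphate receptor gene S1pr3 5.58-fold and Tbx2 4.77-fold, while Foxc1 was 2.73-fold lower and Foxf2 2.34-fold lower. Of 12 relatives of the 7 genes 7 were called higher and 1 lower (median 1.39), and Acta1, the skeletal actin, was 4.91-fold higher. In the step before, E15.5 over E13.5, the lists had 4 of 16, 3 of 22, 1 of 16 and 3 of 12 genes called higher, in the order above, and none lower, beside 4.12% and 0.897% of all genes. In E13.5 over E11.5 they had 6 of 15, 7 of 22, 1 of 16 and 3 of 12 called higher, and 3, 2, 11 and 2 called lower, beside 19.5% and 9.61% of all genes, so 11 of 16 recruitment genes were lower in that step.

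In Rgs5>=3 cells over other E18.5 cells, all 18 pericyte genes with enough UMIs were called higher (median log2 3.91), beside 10.8% of all genes called higher and 13.7% lower. They were led by Higd1b (92.2-fold), Vtn (79.1-fold), Art3 (33.5-fold) and the genes of both subunits of the nitric oxide receptor, Gucy1a3 (56.9-fold) and Gucy1b3 (27.6-fold). Of 23 contractile genes 19 were called higher (median 2.28), led by Actg2 (55.5-fold), Mylk (54.1-fold), Myl9 (46.7-fold), Cnn1 (43.0-fold) and Kcnmb1 (30.3-fold). Of 16 recruitment genes 9 were higher (median 1.81), led by Foxs1 (34.9-fold), Tbx2 (26.5-fold), Heyl (14.03-fold), S1pr3 (10.8-fold) and Nr2f2 (8.48-fold), and Tek, the angiopoietin receptor gene of endothelium, was lower with 0 UMIs against 53. Of 12 relatives 5 were higher and 3 lower (median 0.69). The actins divided, with Actg2 higher and Acta1 12.8-fold and Actc1 6.05-fold lower, and so did the Rgs genes, with Rgs4 15.7-fold and Rgs16 3.13-fold higher and Rgs2 2.60-fold lower. The relatives of the channel genes were nearly absent, with 4 UMIs of Abcc8 and 0 of Kcnj11 in Rgs5>=3 cells.

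The genes most like each member were taken over 31 groups, each 1 class in 1 library with at least 30 cells, from 12292 genes. The likeness is Pearson's r of log2(CPM + 10), a description over groups that share libraries and depth. Rgs5 was most like Gucy1a3 (0.95), Il6 (0.94) and Aoc3 (0.93), and Kcnj8 most like Gucy1a3 (0.98), Il6 (0.98) and Higd1b (0.97). Without the E18.5 mural-like group, Rgs5 and Gucy1a3 still had 0.79 and Kcnj8 and Gucy1a3 0.89. Abcc9 was most like Mylk (0.92), Phox2a and Vtn (0.91 each), and Myh11 most like Phox2a, Actg2 (0.98 each) and Cnn1 (0.97). Without that group Abcc9 had 0.72 with Mylk, 0.09 with Phox2a and 0.34 with Vtn, and Myh11 had 0.19 with Phox2a, 0.47 with Actg2 and 0.08 with Cnn1.

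Cspg4 was most like Il17d (0.89, and 0.91 without the E18.5 mural-like group), S100b (0.88 and 0.94) and Itga10 (0.86 and 0.89). Acta2 was most like Cryab (0.91 and 0.90), Des (0.90 and 0.90) and Tpm2 (0.87 and 0.85). Tagln was most like Heyl (0.92 and 0.84), Galnt16 (0.88 and 0.79) and Notch3 (0.83 and 0.69). Among the members Rgs5 and Kcnj8 were the most alike over all groups at 0.95, and Abcc9 and Kcnj8 had 0.92, or 0.48 without the E18.5 mural-like cells. Abcc9 and Myh11 also had 0.92, or 0.09 without those cells, and Kcnj8 and Myh11 0.90, or -0.07.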

How the data were processed

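The deposited values are raw UMI counts per gene and barcode; the authors made them with Cell Ranger on mm10, per the submitters' processing notes, which also name Seurat 2.3.4. Strand and multi-mapping settings were not given in the sources used here. The 4 tables held 10272 barcodes. Kept cells (9929) had 200 genes or more and mitochondrial UMIs of 10% or less. Scrublet called 32 barcodes (0.312%), which were removed; a caller that marks so few has not worked, and doublets may remain. Counts were scaled to 10000 per cell, logged and clustered over all libraries with scanpy 1.11.5 (2000 variable genes, 30 components, 15 neighbours, Leiden resolution 1.0), with the 7 genes left out of both the clustering and the naming. Classes were named from marker lists (at least 3 markers in at least 20% of cells, 2-fold above other cells) and are written as "like". Levels have exact Poisson, shares exact Clopper-Pearson and ratios conditional binomial 95% intervals. A floor of 3 counts limits a share of 0. For comparisons at equal depth each cell was thinned to 3000 UMIs. Genes named in the division by Myh11 were the 10 highest and 10 lowest called ratios with at least 50 UMIs, those named from the lists the 4 largest stage folds and the 5 highest in Rgs5>=3 cells, and likeness used genes with at least 200 UMIs; a few others in the lists were named after their values were seen. The calls were tested on simulated counts, drawn as independent Poisson counts as the intervals assume. That cannot show how the calls behave where many UMIs of a gene lie in 1 cell. The members and lists were chosen with earlier results of these data known. Alternatives changed the cell filter, doublets, scale, minimum of UMIs, clustering, thresholds and depth. Gene positions came from GENCODE vM21, where 32655 of the 33456 IDs were found.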

Additional observations from a re-analysis of the deposited data

How the results depend on the processing

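Under every alternative run for each, 6 of the 7 genes kept their highest level at E18.5, 6 were called higher at E18.5 than at E15.5 and 6 had their highest class level in mural-like cells. The number of listed pathway genes called higher at E18.5 was 45 by CPM and between 43 and 48 otherwise. The share of Rgs5>=3 cells at E18.5, 17.7%, was 26.2% at a threshold of 1 UMI and 15.1% after thinning to 3000 UMIs, and 16.0% to 18.5% otherwise. The mean number of other members per Rgs5>=3 cell, 3.56, was 2.72 at a threshold of 1 Rgs5 UMI, 2.50 after thinning and 2.44 where detection needed 2 UMIs. The division by Myh11 called 567 genes, but 316 after thinning, when 4820 genes had enough UMIs, and between 428 and 606 otherwise. No result reversed its direction; the Myh11 ratios over E11.5 could not be computed without its 3 top cells, which held all 3 UMIs of that stage. The CPM ratio of Rgs5, E13.5 over E11.5, lost its call without the highest 3% of Scrublet scores (1.99) or the 3 top cells (1.60), but relative to the median gene, a check added after the data were seen, it was 2.94 and 2.34 and kept it. Abcc9 was called lower in cells with Myh11 when these needed 2 Myh11 UMIs (0.486) or after thinning (0.442). No paired analysis was possible because each stage is 1 library with no replicate. With 1 litter per stage, embryo, litter, library and stage cannot be told apart, and values before E18.5 rest on few mural-like cells. A cell with no UMI of a gene is not shown to lack it.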

Other observations

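Not every cell followed the Rgs5 threshold. The mural-like class at E18.5 held 18 cells with fewer than 3 Rgs5 UMIs. As a group they had 163 CPM of Abcc9, 338 of Kcnj8, 4912 of Acta2, 1982 of Tagln and 240 of Myh11, and 13 of the 18 had an Acta2 UMI. Conversely, 10 Rgs5>=3 cells were connective tissue fibroblast-like, with 36 to 143 UMIs of the collagen gene Col3a1 and 17 to 45 of the proteoglycan gene Dcn. They had 3 to 15 Rgs5 UMIs and 0 Myh11 UMIs, 8 of them had an Acta2 UMI, and 1 had an Abcc9 UMI. The granulocyte-like Rgs5>=3 cell held 18328 UMIs in all, with a Scrublet score of 0.214, against a median score of 0.0256 over Rgs5>=3 cells.

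Within the fibroblast-like class at E18.5, Rgs5, Kcnj8, Acta2 and Tagln were at a higher level in a cluster of 117 cells led by Clec3b and Mfap5, without overlap of the intervals. It had 89.0 CPM of Rgs5 (71.0 to 110.2), 10.6 of Abcc9, 17.0 of Kcnj8, 194 of Acta2, 83.7 of Tagln, 30.7 of Cspg4 and 2.12 of Myh11. The other fibroblast-like cluster, with 188 cells, had 17.3 CPM of Rgs5 (10.4 to 27.0), 1.82 of Abcc9, 1.82 of Kcnj8, 41.9 of Acta2, 16.4 of Tagln, 20.05 of Cspg4 and 0 of Myh11. Median depths were 7037 and 5421 UMIs. Without the 10 Rgs5>=3 cells the class kept 34 of its 103 Rgs5 UMIs, 98 of 229 Acta2 and 33 of 97 Tagln UMIs. Whether doublets with mural cells contribute was not tested.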
